A study of Mus musculus with 17 samples.

Results

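The 9 genes described here are Plaa, Zc3h3, Fam135a, Uhrf1bp1l, Dclre1a, Tro, Kdm3a, Srrm1 and Sh3bgr, out of 15355 genes in the deposited table. They were taken from the genes with higher values in newborn offspring of high-fat-fed dams, in order of the p-value of that same comparison, and each was found by its symbol in the table. Their diet difference at birth is therefore the reason for their choice and is given below as a description, with no test. What the choice did not use is their level at weaning, and those libraries carry the diet test in the sections that follow.

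The libraries hold RNA bound to tagged ribosomes, pulled down from the mediobasal hypothalamus of RiboTag mice, in which a ribosomal protein carries an HA tag in cells of the POMC lineage. The mothers received chow or a diet with 45% fat (HFD) at 6 weeks old, were paired with males 4 weeks later and kept the diet until postnatal day 21, so it reached the pups through the dam. Offspring were sampled on postnatal day 0 (P0, 5 chow and 5 HFD samples) and day 21 (P21, weaning, 3 chow and 4 HFD samples). The labels call the samples biological replicates without naming animals, litters, pools or sex, and p-values here reflect only how far these 17 samples scatter, which may be partly technical. All groups carry the tag, and which Cre line drives it is not given in the sources used here. A tag that is switched on by a driver gene stays on in every cell that once used that gene, so the tagged cells can be wider than the POMC neurons of the adult.

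POMC neurons of the arcuate nucleus release melanocortin peptides that reduce feeding, and they mature around birth and through suckling. The 9 genes belong to no single pathway. Zc3h3 and Srrm1 act on messenger RNA, Kdm3a on chromatin, Dclre1a on damaged DNA, Plaa on ubiquitinated proteins and Uhrf1bp1l on membrane lipids. Tro is known from trophoblast adhesion and Sh3bgr from striated muscle.

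Between 22.4 and 37.1 M reads (M, mega) per library fell on genes of the table, and values are reads scaled to each library's effective size. The POMC-neuron list of 20 genes summed to 3661 to 7551 units in chow P0 and 3657 to 7738 in HFD P0. At P21 it summed to 14094 to 21591 in chow and 20012 to 22693 in HFD. The list mixes identity genes with peptide-processing genes, so its sum does not show how far POMC neurons were enriched. Pomc itself was detected in every library. Markers of other cells were present too. The oligodendrocyte list of 14 genes summed to 357 to 1082 at P0, to 8331 to 18540 in chow P21 and to 4055 to 7423 in HFD P21, with no overlap between the diets at P21. HFD P0 replicate 5 stood apart from its group, since its Pomc level was 1057 units while the remaining 4 HFD newborns had 90.7 to 246 and chow newborns 146 to 1308. The P0 differences of the 9 genes, and the counts and medians of their gene groups at P0, are therefore given with and without it. For the wider gene groups the counts without it stand together, with the range of the medians. Differences of single close relatives are given with it only.

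Zc3h3, a zinc finger protein needed for polyadenylation and nuclear export of messenger RNA, was measured at 13.1, 17.3, 13.4, 14.7 and 15.1 units in the 5 chow newborn libraries and at 31.5, 34.5, 31.1, 32.6 and 19.6 in the HFD newborns. The diets did not overlap, and the lowest HFD value was that of replicate 5. The means were 14.7 ± 1.67 and 29.9 ± 5.90 (SD, n = 5 each), a log2 difference of 0.95 (SE 0.19) on log2(value + 1), the scale of every difference below. Without replicate 5 it was 1.09.

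Srrm1 encodes a splicing coactivator with serine and arginine repeats that associates with the exon junction complex. Its 5 chow newborn values were 127, 241, 107, 142 and 116, and its HFD values 338, 396, 191, 339 and 227. It was the 1 gene of the 9 whose diets overlapped at P0, because chow replicate 2 lay above HFD replicates 3 and 5. Its log2 difference was 1.03 (SE 0.24), and 1.12 without HFD replicate 5.

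Kdm3a removes methyl groups from lysine 9 of histone H3, is induced by low oxygen, and is known from obese knockout mice. Newborn chow libraries gave 11.8, 14.8, 19.2, 18.5 and 23.7 units, and HFD libraries 26.4, 43.1, 31.8, 31.4 and 38.2. The diets did not overlap, with 26.4 as the lowest HFD value and 23.7 as the highest chow value. The log2 difference was 0.94 (SE 0.21), and 0.89 without HFD replicate 5, which was the second highest of its group.

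Dclre1a, the nuclease SNM1A of interstrand crosslink repair, is the least abundant per length of the 9 in chow newborns, at 0.844 units per kilobase of exon. It gave 4.85, 2.44, 7.03, 4.34 and 8.29 units in chow and 14.9, 12.9, 13.4, 11.7 and 14.0 in HFD newborns, with a wide gap between the diets. Its log2 difference was 1.25 (SE 0.27), and 1.23 without replicate 5. These values rest on 61 to 479 reads per newborn library.

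Plaa encodes a ubiquitin-binding cofactor of the segregase VCP. It was measured at 90.1, 80.7, 79.9, 107 and 97.9 units in chow newborns and at 129, 150, 167, 145 and 139 in HFD newborns, with no overlap. Its log2 difference was 0.68 (SE 0.13). The SD within groups at P0 was 0.16 on the log2 scale, below that of all but 4.27% of genes. A choice by p-value favours a small spread at P0, so that rank is partly a product of the choice. At P21, which the choice did not use, the SD was 0.15, below that of all but 9.17% of genes. Without replicate 5 the difference was 0.69.

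Uhrf1bp1l, a bridge-like lipid transfer protein of early endosomes, also had an SD within groups of 0.16 at P0, where the choice favours a small spread. At P21 it was 0.17, below that of all but 14.8% of genes. Its values were 33.3, 37.0, 37.4, 33.7 and 44.0 in chow and 68.7, 56.0, 57.0, 64.8 and 52.7 in HFD newborns. The lowest HFD value, replicate 5, stayed above the highest chow value. The log2 difference was 0.68 (SE 0.15), and 0.72 without replicate 5.

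Fam135a gave 24.1, 33.9, 22.7, 23.6 and 27.6 units in chow newborns and 42.8, 52.2, 60.8, 54.3 and 37.1 in HFD newborns. Here too replicate 5 was the lowest HFD library and the diets did not overlap. On the log2 scale the difference was 0.88 (SE 0.18), and 0.97 without that library.

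Tro encodes trophinin, an X-linked protein of the MAGE family known from adhesion between trophoblast and uterine epithelium, and was the most abundant of the 9 per length in chow newborns, at 25.8 units per kilobase of exon. Chow newborns gave 187, 204, 197, 180 and 172 units, and HFD newborns 419, 233, 275, 339 and 312. The chow libraries lay close together and the HFD libraries ran widely above them. Its log2 difference was 0.72 (SE 0.16), and 0.72 without replicate 5 too.

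Sh3bgr encodes a small protein with a glutamate-rich tail, abundant in striated muscle. It gave 4.56, 1.40, 2.55, 2.75 and 4.16 units in chow newborns and 8.73, 10.3, 8.28, 6.97 and 6 in HFD newborns, on 35 to 261 reads. The diets did not overlap, and the log2 difference was 1.19 (SE 0.28), or 1.28 without replicate 5. The 13 measured markers of striated muscle summed to 29.7 to 63.5 units in chow and 40.4 to 63.0 in HFD newborns, and 3 of them were at 0 in at least 1 newborn library. Acta1, the skeletal actin, reached 28.5 units and the giant muscle protein gene Ttn 14.6 units at most at P0, above the highest newborn value of Sh3bgr. The part of muscle RNA in the Sh3bgr values was not tested.

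**Figure D1:**
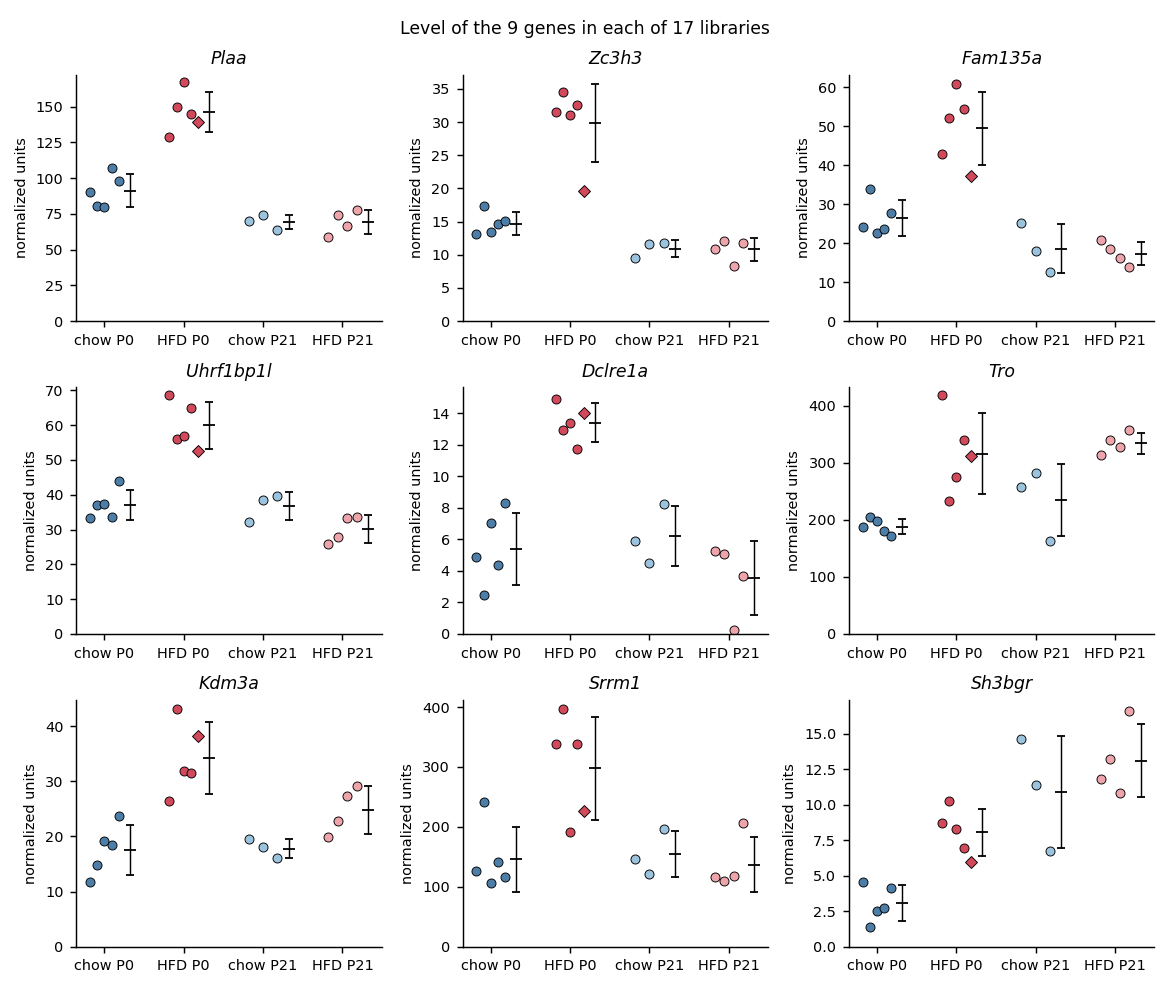
Value of each of the 9 genes, in normalized units, in each of the 17 libraries by diet and age (points), with the mean and SD of each group beside them (bars). Each vertical axis starts at 0 and HFD P0 replicate 5 is a diamond. At P0 only Srrm1 has overlapping diets, and at P21 the HFD libraries of Tro and Kdm3a lie above the chow libraries.

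In all, 8 of the 9 genes had newborn HFD libraries above all chow libraries, a pattern held by 0.738% of the 14086 genes tested at P0 (2.45% in either direction). Without HFD replicate 5 it was again 8 of the 9, beside 2.47% of the 14269 genes then tested. Of all genes, 0.00710% passed the test as higher, 0.284% as lower and 0.291% in either direction. These shares describe how rare such genes were and say nothing about the 9, which the same comparison chose. Their median log2 difference was 0.94, beside -0.00 over all genes, and ran from 0.68 to 1.25. Without HFD replicate 5 it was 0.97, running from 0.69 to 1.28, and 26 genes (0.182%) then passed the test as higher, against 1 with all 10 libraries. The adjusted p-values that ordered the choice ran from 0.0543 for Plaa to 0.0988 for Sh3bgr (limma, Benjamini-Hochberg), and they are the choice itself and no support for it. Bulk values cannot tell a change in RNA per cell from a change in the number of cells of a type.

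The threshold of the choice fell in a continuous order. Ahead of the 9 stood Col11a2, a fibrillar collagen chain at 0.224 ± 0.206 units in chow and 3.31 ± 1.52 in HFD newborns (SD, n = 5). It was the 1 gene that passed as higher by limma, with a log2 difference of 1.77 (1.88 without HFD replicate 5). By edgeR its adjusted p was 0.0581. Its chow values ran from 0 to 0.520, and those of replicates 1 and 2, 0.06 and 0, were under 3 reads. Between Kdm3a and Srrm1 stood 1 unnamed gene model, which is not among the 9. Just inside the threshold were Srrm1 and Sh3bgr. Just outside were Tet2, an enzyme that oxidises methylated cytosine, at 22.0 ± 3.75 units in chow and 37.2 ± 5.00 in HFD newborns, then Cxxc1, a CpG-binding subunit of histone methyltransferases, at 32.8 ± 4.04 and 51.1 ± 5.71, and Tnip2 at 3.99 ± 1.79 and 10.3 ± 1.32 (SD, n = 5). Their log2 differences were 0.73, 0.63 and 1.29, and 0.81, 0.63 and 1.36 without HFD replicate 5.

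The sequences before the start sites were read for 6 of the 9 genes from RefSeq windows of GRCm38.p6, from 250 bases before to 50 after each start. Zc3h3, Tro and Sh3bgr had no window in that table. The windows of 4 genes are printed 5′ to 3′ on the strand of the gene, all of which is the minus strand, to show which motifs their starts held. Capitals mark letters of the 9 searched motifs, on either strand.

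Srrm1: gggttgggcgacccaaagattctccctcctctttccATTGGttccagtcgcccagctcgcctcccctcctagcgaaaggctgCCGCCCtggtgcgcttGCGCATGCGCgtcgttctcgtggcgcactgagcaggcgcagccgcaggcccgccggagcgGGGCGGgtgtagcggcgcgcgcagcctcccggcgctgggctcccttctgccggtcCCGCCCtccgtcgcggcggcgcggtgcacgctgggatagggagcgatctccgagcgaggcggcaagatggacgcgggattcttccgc
Kdm3a: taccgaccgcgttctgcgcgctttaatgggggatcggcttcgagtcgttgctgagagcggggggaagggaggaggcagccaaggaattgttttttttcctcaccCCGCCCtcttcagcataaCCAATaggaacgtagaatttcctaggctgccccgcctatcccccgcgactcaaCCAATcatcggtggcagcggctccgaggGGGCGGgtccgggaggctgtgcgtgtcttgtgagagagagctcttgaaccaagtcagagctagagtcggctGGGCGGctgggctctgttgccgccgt
Dclre1a: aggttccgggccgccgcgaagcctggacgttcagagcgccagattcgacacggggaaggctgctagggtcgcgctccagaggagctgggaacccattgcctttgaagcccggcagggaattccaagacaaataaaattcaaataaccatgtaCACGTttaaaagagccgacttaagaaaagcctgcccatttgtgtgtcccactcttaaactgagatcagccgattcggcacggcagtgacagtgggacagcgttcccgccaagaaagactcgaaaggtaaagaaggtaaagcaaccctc
Plaa: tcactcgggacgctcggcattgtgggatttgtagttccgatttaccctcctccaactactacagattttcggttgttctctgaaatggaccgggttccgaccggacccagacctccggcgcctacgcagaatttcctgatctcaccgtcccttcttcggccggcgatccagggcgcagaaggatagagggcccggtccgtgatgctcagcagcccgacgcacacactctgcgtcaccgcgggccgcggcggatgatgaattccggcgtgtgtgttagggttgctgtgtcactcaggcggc

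The Srrm1 window (chr4:135353097-135353396) held GGGCGG, the GC box known from Sp1 binding, CCAAT, the box of NF-Y, and the palindrome of NRF1, a string present in 1.87% of the windows of tested genes and in 0.971% of all 32851 windows. The outermost of the 3 Kdm3a windows (chr6:71632868-71633167) held GGGCGG and CCAAT. The Dclre1a window (chr19:56548173-56548472) held ACGTG, the core of the hypoxia response element, and no other motif searched, and the Plaa window (chr4:94603198-94603497) held none. These are matches of letters and not sites of binding.

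The 6 genes had 8 windows in all. GGGCGG occurred in 5 of the 8 (of Fam135a, Kdm3a, Srrm1 and Uhrf1bp1l), beside 60.4% of the windows of tested genes and 35.7% of all windows. Of the Kdm3a windows, 2 overlap and share 1 GGGCGG, though each held others too, so the 5 are not separate sequences. CCAAT occurred in 2 of the 8, beside 37.3% and 37.4%. ACGTG occurred in 1, beside 24.3% and 19.6%, and CCGGAAG, the ETS motif, in 1 other Kdm3a window, beside 15% and 8.86%. The E-box CACGTG, which contains ACGTG in itself, the TATA box TATAAA, the cyclic AMP element TGACGTCA and the YY1 motif were in none of the 8, and in 9.44%, 7.44%, 2.9% and 1.24% of the windows of tested genes (7.15%, 13.6%, 1.79% and 0.633% of all). No searched motif was common to all 6 genes. The printed windows held 40, 24, 19 and 29 CpG in the order above, against a median of 7 over all windows. Those not printed held 29 (Fam135a), 15 (Uhrf1bp1l), and 40 and 0 (Kdm3a). The median over windows of tested genes alone was not taken, so these counts do not show that the 6 genes were rich in CpG among tested genes.

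At P21 the 9 genes were compared in libraries the choice had not used. None passed the test of HFD against chow (limma, adjusted p over 14070 genes, 3 chow and 4 HFD libraries), where 0.178% of all genes passed (0.0995% higher, 0.0782% lower). Tro alone, 1 of the 9, had an unadjusted p below 0.05, beside 17% of all genes, and edgeR on the recovered reads also called 0. The median log2 difference of the 9 was -0.02, equal to that of all genes, with 3 above and 6 below 0.

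Tro gave 257, 282 and 162 units in chow P21 and 313, 340, 327 and 357 in HFD P21. All 4 HFD libraries lay above all 3 chow libraries, and the low chow value was that of replicate 3. The log2 difference was 0.55 (SE 0.18, 95% interval 0.17 to 0.94 without adjustment), with an adjusted p of 0.165 by limma. Without chow replicate 3 it was 0.31.

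Kdm3a gave 19.5, 18 and 16.0 units in chow P21 and 19.9, 22.7, 27.4 and 29.2 in HFD P21. These diets did not overlap either, although 19.5 and 19.9 nearly met. On the log2 scale the difference was 0.44 (SE 0.22, 95% interval -0.03 to 0.91) and the adjusted p 0.327 by limma. Tro and Kdm3a were the 2 genes of the 9 whose diets did not overlap at P21, beside 8.34% of all genes with HFD above chow and 16.1% in either direction.

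Plaa, Zc3h3 and Fam135a had nearly equal means at P21. Plaa averaged 69.3 ± 5.04 units in chow (SD, n = 3) and 69.3 ± 8.18 in HFD (n = 4), a log2 difference of -0.00 with a 95% interval of -0.34 to 0.33. Zc3h3 averaged 10.9 ± 1.27 and 10.8 ± 1.72, with an interval of -0.57 to 0.52, and Fam135a 18.6 ± 6.29 and 17.3 ± 2.98, with an interval of -0.64 to 0.52.

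Uhrf1bp1l averaged 36.8 ± 3.99 units in chow P21 and 30.1 ± 3.93 in HFD P21, a log2 difference of -0.28 (95% interval -0.69 to 0.13). Srrm1 averaged 155 ± 38.3 and 137 ± 45.9, a difference of -0.20 (-0.70 to 0.30), and its highest HFD library, replicate 4 at 206, exceeded every chow library. That difference was -0.41 without HFD P21 replicate 4 and -0.01 without chow P21 replicate 3. Sh3bgr averaged 10.9 ± 3.92 and 13.1 ± 2.57, a difference of 0.28 (-0.36 to 0.92) that was 0.00 without chow replicate 3.

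Dclre1a gave 5.88, 4.49 and 8.23 units in chow P21 and 5.26, 5.09, 0.240 and 3.66 in HFD P21. HFD replicate 3 stood far below the others, with 7 reads (0.240 units, exact Poisson 95% interval 0.0955 to 0.489, counting error only) where the other HFD libraries had 110 to 154. The log2 difference was -0.87 (95% interval -2 to 0.26) with that library and -0.32 without it. Its SD within groups at P21, 0.89, was above that of 98.0% of genes.

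Summed markers of glia and vessels did not overlap between the diets at P21, with HFD lower. Separation was not particular to them, and 16.1% of single genes did not overlap in either direction. Of the gene groups described below, those of VCP, end processing, splicing, MAGE, hypoxia and close relatives separated with HFD higher. The MAGE group summed to 3911 to 5502 units in chow and 6440 to 7221 in HFD. Those of lipid transfer, crosslink repair and lysine 9 methylation overlapped. The vessel list of 16 genes summed to 216 to 296 units in chow and 117 to 197 in HFD. The microglial list of 14 genes summed to 427 to 727 units in chow and 257 to 390 in HFD, and the astrocyte list of 18 to 4515 to 6223 and 1868 to 3118. Nuclear-retained long RNAs summed to 3095 to 4122 in chow P21 and 1974 to 3093 in HFD P21. The part of these RNAs in the P21 differences of the 9 genes was not tested.

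**Figure D2:**
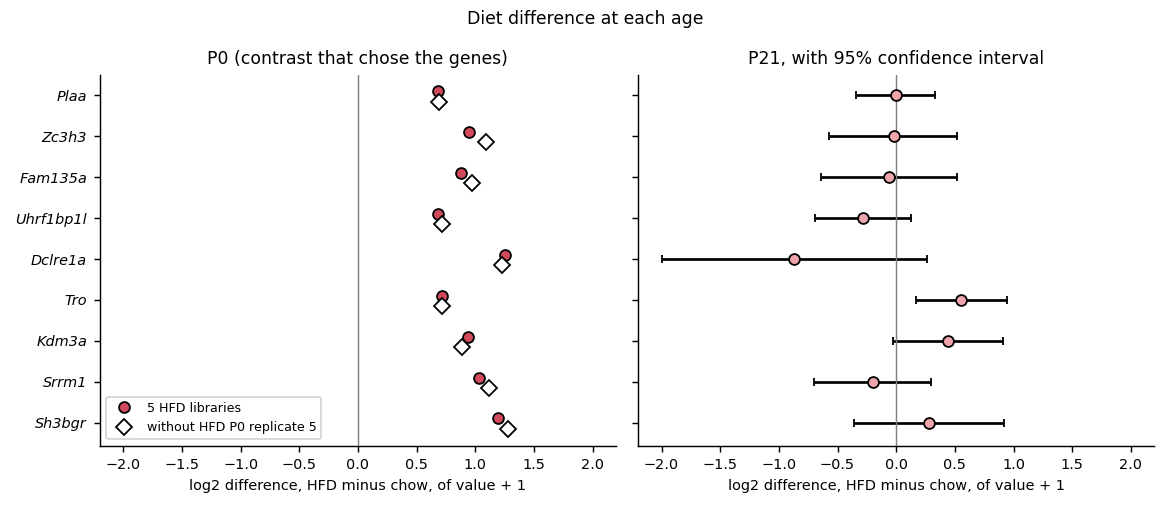
Log2 difference of HFD minus chow for each of the 9 genes at P0 (circles for all libraries, diamonds without HFD P0 replicate 5) and at P21 (circles with 95% confidence intervals). The P0 values chose the genes. The P21 values centre on a median of -0.02, with Tro highest at 0.55 and Dclre1a lowest at -0.87.

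The age comparison set P21 against P0, averaged over the diets with equal weight. Of the 9 genes, 6 passed the test as lower at P21 and 1 as higher, beside 57.1% of all 15037 genes that passed in either direction (29.2% lower, 27.8% higher). The newborn diets enter with equal weight, yet a gene that is high in HFD newborns alone also has a raised newborn average, so the count is not independent of the choice. For 4 genes (Plaa, Zc3h3, Fam135a and Sh3bgr) the called age difference had 1 sign in both diets and the test is given. The newborn libraries and their spread entered the choice of genes, so the p-values of these 4 are not independent of it. Picking the 4 by sign used the same values. For Uhrf1bp1l, Dclre1a and Srrm1 the called difference came from the HFD offspring, whose newborn values had chosen them, and only values are given.

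Plaa fell from the newborn values above to 69.9, 74.0 and 64.0 units in chow P21 and 59.1, 74.2, 66.7 and 77.4 in HFD P21, below every newborn library. The age difference was -0.72 on the log2 scale (SE 0.10, adjusted p 2.91e-06 by limma), -0.38 in chow and -1.07 in HFD offspring. Zc3h3 gave 9.48, 11.6 and 11.8 in chow P21 and 10.9, 12.1, 8.34 and 11.8 in HFD P21, also below every newborn library, with a difference of -0.89 (SE 0.15, adjusted p 3.93e-05), -0.40 in chow and -1.38 in HFD offspring. These were the 2 genes of the 9 whose ages did not overlap, beside 9.47% of all genes lower at P21 and 20.2% in either direction.

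Fam135a fell by 0.99 (SE 0.15, adjusted p 1.71e-05 by limma), to 25.2, 17.9 and 12.7 units in chow P21 and 20.8, 18.4, 16.2 and 13.8 in HFD P21. Within the diets the difference was -0.52 in chow and -1.46 in HFD offspring.

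Sh3bgr rose, by 1.09 (SE 0.21, adjusted p 0.000144 by limma), with 14.6, 11.4 and 6.76 units in chow P21 and 11.8, 13.2, 10.8 and 16.6 in HFD P21. All 4 HFD P21 libraries were above every newborn library, and chow P21 replicate 3 was within the range of HFD newborns. The difference was 1.55 in chow and 0.64 in HFD offspring. Striated muscle markers summed to 61.1 to 81.5 units in chow P21 and 56.8 to 66.8 in HFD P21, and their part in the rise was not tested.

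Uhrf1bp1l was at 32.3, 38.5 and 39.7 units in chow P21, within or just below the range of chow newborns, and at 25.8, 27.9, 33.3 and 33.6 in HFD P21, below every HFD newborn. Its age difference was -0.01 in chow and -0.97 in HFD offspring. Dclre1a differed by 0.22 in chow and -1.90 in HFD offspring, and the average of the diets, -0.84, was -0.56 without HFD P21 replicate 3.

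Srrm1, at 146, 122 and 197 units in chow P21 and 116, 110, 118 and 206 in HFD P21, differed by 0.12 in chow and -1.11 in HFD offspring. The calls of Dclre1a and Srrm1 on the averages were also unstable. That of Dclre1a was lost by edgeR, with the replicate number as a block in the fit, and without chow P21 replicate 2. That of Srrm1 was lost in 7 of 17 fits that each left out 1 library, those without chow P0 replicate 2, HFD P0 replicate 2, chow P21 replicates 1 and 2, and HFD P21 replicates 1, 2 and 3.

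Tro and Kdm3a did not pass. Their age differences were 0.19 (95% interval -0.07 to 0.45) and -0.20 (-0.52 to 0.12). Tro passed without chow P21 replicate 3, at 0.31. Of all genes, 27.8% passed as higher at P21 and 29.2% as lower. Markers of other cells moved with age as well: 10 of 14 oligodendrocyte genes rose, and 8 of 11 fibroblast and 10 of 16 vessel genes fell. Their part in the age differences was not tested.

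**Figure D3:**
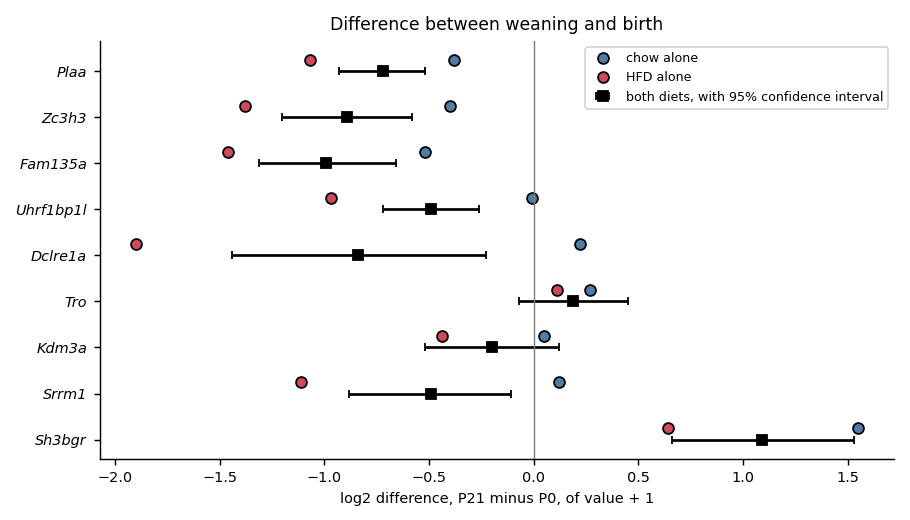
Log2 difference of P21 minus P0 for each of the 9 genes, averaged over both diets (squares with 95% confidence intervals) and within each diet (circles, no test). The averaged values run from -0.99 for Fam135a to 1.09 for Sh3bgr, and within the HFD offspring 7 of the 9 are below 0.

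Within each diet the age difference is given as a value only, since the newborn libraries chose the genes. In chow offspring 4 of the 9 were lower at P21 and 5 higher, with a median of 0.05 beside -0.01 over all genes. In HFD offspring 7 were lower and 2 higher, with a median of -1.07 beside -0.07. For Plaa, Zc3h3, Fam135a, Uhrf1bp1l and Dclre1a all 5 HFD newborn libraries lay above all 7 weaning libraries, as for 13.6% of all genes. All 5 chow newborn libraries lay above the weaning libraries for Plaa and Zc3h3, as for 12.9% of all genes.

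Between libraries of a group the 9 genes showed little joint variation. Pearson's r of their deviations from the group means, over 17 libraries, averaged 0.05 over the 36 pairs, with 19 above 0, beside 0.001 over all pairs of genes. The highest values were 0.50 for Zc3h3 with Srrm1 and 0.48 for Plaa with Sh3bgr, and the lowest -0.30 for Fam135a with Uhrf1bp1l. Over the 7 P21 libraries the mean was 0.11, and over 16 without HFD P0 replicate 5 it was 0.02. The points share libraries and depth, so these values are a description.

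**Figure D4:**
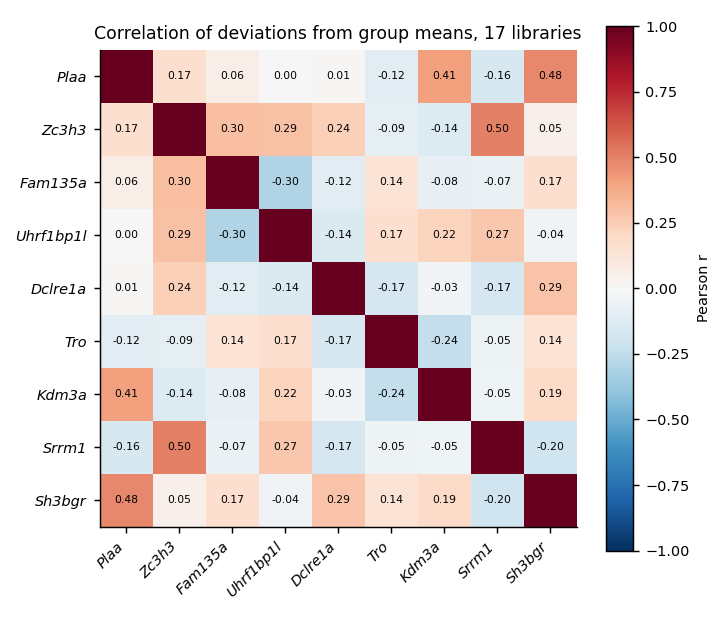
Pearson's r between the 9 genes' deviations from their group means over 17 libraries, on a colour scale from -1 to 1. Most of the 36 pairs lie near 0, with Zc3h3 and Srrm1 the highest at 0.50.

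The 9 genes' standardized deviations from their group means were averaged in each of the 17 libraries, which leaves out diet and age. The genes whose own deviations were most like that average were Peli1 (r = 0.91), a ubiquitin ligase of immune signalling, Fkbp5 (0.90), a co-chaperone of the glucocorticoid receptor, the syndecan Sdc3 (0.89), the deubiquitinase Usp12 (0.89) and the ubiquitin ligase Smurf1 (0.88). The ranking took the genes tested in the age comparison, 15037 with the 9 counted, and left the 9 out. These r are the highest of that many over 17 libraries, and the values share libraries and depth. They are a description and do not show joint regulation. Without HFD P0 replicate 5 these 5 had r of 0.87, 0.86, 0.88, 0.87 and 0.85, and Cpne2 (0.89, from 0.41 over 17 libraries) and Tub (0.88, from 0.57) came first.

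The closest relatives of the 9 were read in the same fits. None of 14 relatives passed the P0 diet test (limma; 0 with an unadjusted p below 0.05, and 0 by edgeR), and their median difference was 0.14. Without HFD P0 replicate 5, 4 had an unadjusted p below 0.05, 0 passed, and the median was again 0.14. Kdm3b, the nearest relative of Kdm3a, differed by 0.26 and Jmjd1c by 0.13. Dclre1b and Dclre1c, nucleases like Dclre1a, differed by 0.41 and 0.51.

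The other relatives had P0 differences of either sign. Srrm2, a scaffold of nuclear speckles, differed by 0.32, and Srrm3 and Srrm4, neuronal splicing regulators, by -0.45 and 0.18. Uhrf1bp1 differed by 0.29 and Fam135b by 0.16. Maged1 and Maged2, of the MAGE family as Tro is, differed by -0.20 and -0.40, and Sh3bgrl, Sh3bgrl2 and Sh3bgrl3 by 0.06, -0.33 and -0.09. The differences between members and relatives were not tested, because the members were chosen on these values.

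At P21 the diet test again called 0 of the 14 (limma; 3 with an unadjusted p below 0.05, and 0 by edgeR), with Fam135b at 0.78 and Maged1 at 0.65. With age 3 rose and 7 fell, beside 27.8% and 29.2% of all genes. Sh3bgrl2 rose by 1.1 and Maged1 by 0.85, while Sh3bgrl fell by 1.55 (adjusted p 1.64e-11 by limma) and Kdm3b by 1.25 (1.66e-06).

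The wider gene groups of the 9 were counted in the same fits, where 9.28% of all genes at P0 and 17% at P21 had an unadjusted p below 0.05. For age, 27.8% of all genes passed as higher and 29.2% as lower, 57.1% in either direction. The age counts below stand beside those shares. Without HFD P0 replicate 5, an alternative chosen after seeing the data, Alyref and Kdm1a were again the 2 genes called at P0 in the 8 groups, whose medians ran from -0.31 to 0.20. By limma, genes with an unadjusted p below 0.05 were then 4 of 28 for VCP, 6 of 41 for end processing and 11 of 38 for splicing. They were 3 of 25 for lysine 9 methylation, 5 of 24 for hypoxia and 12 of 30 for crosslink repair. For MAGE they were 2 of 11 and for lipid transfer 4 of 23. The share of all genes without that library was not taken.

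Of 28 tested genes of VCP and its cofactors, the group of Plaa, 0 passed at P0 (limma; 2 with an unadjusted p below 0.05, 0 by edgeR), with a median of 0.02, and 0 of 29 at P21 (3 and 0), where Vcp itself had the smallest p and a difference of 0.32. With age 9 rose and 1 fell, and Derl3, a channel protein of the endoplasmic reticulum, rose by 1.44. Derl3 was low throughout, at a mean of 0.300 units in chow and 0.454 in HFD newborns, and 3.02 and 2.23 at P21. At such levels the size of its difference depends on the 1 unit added before the log. In the group of Zc3h3, messenger RNA end processing and export, 1 of 41 genes fell at P0 (limma and edgeR, 1 each; 3 with an unadjusted p below 0.05), the export adaptor Alyref. Its log2 difference was -2.18 (adjusted p 0.00396 by limma) and -1.89 without HFD replicate 5. At P21 0 passed (7 with an unadjusted p below 0.05, 0 by edgeR), with the cleavage factor gene Cstf2 at 0.78.

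With age 15 genes of that group fell and 1 rose, among them Nudt21, a cleavage factor subunit, which fell by 0.94 (adjusted p 6.19e-08 by limma). The splicing group of Srrm1, 38 SR and exon junction genes, had 0 calls at P0 (limma; 5 with an unadjusted p below 0.05, 0 by edgeR) and at P21 (4 and 0, with the splicing regulator Tra2a at 0.54), and with age 14 fell and 2 rose. Srsf1, a founding SR protein, fell by 0.71 (adjusted p 2.31e-06 by limma).

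Of 25 genes of lysine 9 methylation, enzymes, readers and partners in the group of Kdm3a, 1 fell at P0 by limma and 0 by edgeR (3 with an unadjusted p below 0.05). That gene was the demethylase Kdm1a, with a log2 difference of -1.16 and an adjusted p of 0.0353 by limma, 0.0117 without HFD replicate 5 and 0.0581 by edgeR. At P21 0 passed (limma; 3 with an unadjusted p below 0.05, 0 by edgeR), with the demethylase Hr at -1.04. With age 14 fell and 3 rose, and the G9a partner Wiz fell by 1.90 (adjusted p 1.55e-08). Hypoxia-inducible genes, a class that holds Kdm3a, had a median of -0.07 at P0 with 0 of 24 called (limma; 2 with an unadjusted p below 0.05, 0 by edgeR), and 0 of 25 were called at P21 (6 and 0, with lactate dehydrogenase Ldha at 0.70). With age 13 of 26 rose and 4 fell, and the glycolytic enzyme Aldoa rose by 2.12 (adjusted p 2.05e-12).

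Crosslink repair, the group of Dclre1a, had 0 of 30 calls at P0 (limma; 9 with an unadjusted p below 0.05, 0 by edgeR), with a median of 0.07, and 0 of 27 at P21 (2 and 0, with Brca1 at -1.1). With age 13 of 31 fell and 1 rose, and Rev3l, the catalytic subunit of polymerase zeta, fell by 2.72 (adjusted p 2.13e-10). The 11 genes of the MAGE group of Tro had a median of -0.19 at P0 and 0.41 at P21, with 0 calls at either age (limma; 0 and 5 with an unadjusted p below 0.05, and 0 by edgeR at both). Magee2 had the smallest p at P21, with a difference of 0.75. With age 2 of the 11 rose, Ndnl2 among them by 0.74, and 4 fell.

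Lipid transfer and early endosome genes, the group of Uhrf1bp1l, had a median of 0.18 at P0 with 0 of 21 called (limma; 0 with an unadjusted p below 0.05, 0 by edgeR), and 0 of 21 were called at P21 (2 and 0). The vesicle fusion gene Vps45 had the smallest p there, with a difference of 0.35. With age 6 of 23 rose, 1 unnamed gene model having the smallest p, and 4 fell. Nuclear-retained long RNAs, which ribosomes should not carry, had a median of 0.33 at P0, 10 of 11 above 0, with 0 called (limma; 0 with an unadjusted p below 0.05, 0 by edgeR). Without HFD replicate 5 that median was 0.62, with 0 called. Their summed level was 1595 to 3961 units in chow and 2206 to 4716 in HFD newborns, and their part in the P0 values of the 9 genes was not tested.

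In the annotation of GRCm38 (GENCODE M21) no exon of the 9 shares bases with an exon of another gene. Plaa (ENSMUSG00000028577.13) lies at chr4:94567514-94603244 and Srrm1 (ENSMUSG00000028809.16) on the same chromosome at chr4:135320484-135353321, Zc3h3 at chr15:75754430-75841915, Fam135a at chr1:24011093-24100341, Dclre1a at chr19:56529167-56548222, Tro at chrX:150645304-150657583 and Kdm3a at chr6:71588972-71632990, all on the minus strand. Uhrf1bp1l at chr10:89744991-89819871 and Sh3bgr at chr16:96200450-96228935 lie on the plus strand. Exonic length ran from 1570 bases for Sh3bgr to 9235 for Uhrf1bp1l, beside a median of 4426, and GC content of the longest transcript from 37% for Plaa to 58.6% for Zc3h3, beside 49.9%.

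Tro is the only X-linked gene of the 9, and the labels give no sex. Ddx3y, a Y-linked gene, was present in all 17 libraries, at 45.4 to 70.3 units in chow P0, 61.5 to 96.3 in HFD P0, 97.2 to 118 in chow P21 and 101 to 159 in HFD P21. The part of sex in the Tro values was not tested.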

How the data were processed

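The deposited table holds, per gene and library, a signal normalized by the authors. From its values it is reads divided by an effective library size: all non-zero values (100%) lie at whole reads within 0.0051 units in all 17 libraries, against 22.2% to 37% by chance. The read step was sharp enough for a stricter test in 6 columns. In the other 11 the recovered reads, which edgeR also used, rest on that rounding tolerance. One read is worth 0.0275 to 0.0460 units, so a value of 0 allows up to 3 reads, 0.0826 to 0.138 units (counting error only). Per the submitters' processing notes, TopHat2 2.0.13, Picard 1.80, HTSeq 0.6.1, FastQC and edgeR were used with mm10. Settings and strand: not given in the sources used here. Per the labels, libraries were Nextera XT, sequenced as single reads of 50 bases. Of the columns, 15 were empty.

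The 9 genes, the gene lists and the rules for named genes were chosen with earlier results of these data known. limma 3.58.1 (R 4.3.3) was fitted to log2(value + 1) over all genes above 1 unit in at least the number of libraries in the smaller group, with an intensity trend and Benjamini-Hochberg adjustment at 0.05, two-sided. Diets were compared within each age, and ages over both diets in a fit of all 4 groups. From each role group the text names the gene with the smallest p at P21 and that with the smallest p for age, and all relatives. Alyref, Kdm1a, Ddx3y, Eif2s3y, Acta1 and Ttn were named after their values were seen. Because the values are normalized signal, edgeR 4.0.16 on the recovered reads is an alternative only. Other alternatives were the pseudocount, filter, prior, scaling, replicate block and leaving out each library. The scripts were tested on simulated data.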

Additional observations from a re-analysis of the deposited data

Results flagged for a closer look

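Of 27 groups of 4 or 5 libraries examined, 3 held a library far from the others by Dixon's criterion, which chance meets in about 1 group in 20. Zc3h3 was at 19.6 units in HFD P0 replicate 5, against 31.1 to 34.5 in the other 4 (gap over range 0.77, critical value 0.71). Srrm1 was at 241 in chow P0 replicate 2, against 107 to 142 (0.74, critical value 0.71), and at 206 in HFD P21 replicate 4, against 110 to 118 (0.92, critical value 0.829).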

How the results depend on the processing

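All 162 newborn member differences kept their direction under the alternatives; the choice of genes used them. The adjusted p-values that ordered the choice were below 0.05 for 7 of the 9 with the replicate block, 6 without HFD P0 replicate 5, 1 with median-of-ratios scaling, 1 with all 4 groups in one fit, 1 without chow P0 replicate 2 and 1 without HFD P0 replicate 2, and for 0 otherwise; they support nothing. At P0, 41 genes passed, 10 with all 4 groups in one fit, and 18 to 135 with 1 library left out, 135 without HFD P0 replicate 5. At P21, 25 passed, 16 with no filter, 42 with a robust prior, 15 by edgeR, and 3 to 51 with 1 library left out; none of the 9 passed in any of these. Of 135 P21 member differences, 10 changed sign, all below the threshold: with 1 library left out Plaa ran from -0.06 to 0.07, Zc3h3 from -0.12 to 0.08 and Fam135a from -0.30 to 0.17. For age, 7 of the 9 passed, and 5 to 8 with 1 library left out. The causes were not tested.

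Replicate numbers are shared between groups, but same-numbered deviations correlated at only -0.17 to 0.49 between the P0 diets and -0.04 to 0.10 at P21, and 2 of 5 and 1 of 3 samples correlated best with their own number, so the numbers were not taken to pair the samples. With the replicate block 104 genes passed at P0, 3 at P21 and 9022 for age, with 6 of the 9 members for age, and Fam135a at P21 was 0.03. Values under 3 reads are at the limit of the depth.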
